A study of Mus musculus with 6 samples.

Results

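The genes described here are splicing factors and other RNA-binding proteins, read from kidney RNA of mice. Members were chosen by gene symbol: SR and SR-related proteins (Srsf, Srrm), hnRNP proteins, Sm, LSm and other snRNP proteins, SF3 and U2AF subunits, PRPF factors, RBM proteins and the DEAD- and DEAH-box RNA helicases (Ddx, Dhx). The interferon-linked Ddx58 and Dhx58 and the Y-linked Ddx3y were left out. The deposited table lists 7340 genes and 79 of them are members. In the first group of 3 kidneys, IRI with MK-8617, wild-type kidneys had undergone ischaemia-reperfusion injury, in which blood flow is stopped and restored, and had received MK-8617, a drug that blocks the prolyl hydroxylases by which cells tag hypoxia-inducible factor (HIF) for breakdown. In the other group of 3 kidneys, IRI, wild-type kidneys had the same injury and no drug is named. For replicates 2 and 3 of the MK-8617 group the treatment field gives MK8618 and MK8619 in place of the MK8617 of their titles, and the titles were followed. The column names carry a 1d tag, while the labels give no time after injury, dose, age or sex, and whether each kidney is from its own animal is not stated, so p-values reflect only how much these samples varied. All samples are labelled kidney, although the word tumors appears in the series' design text. No uninjured kidney was analysed here.

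The spliceosome removes introns from pre-mRNA. Its building blocks are small nuclear ribonucleoproteins (snRNPs), in which a ring of Sm proteins, or of LSm proteins on U6 snRNA, encircles a small nuclear RNA. SR proteins mostly favour the use of an exon, hnRNP proteins often oppose it, and RNA helicases drive the rearrangements between steps. Most of these proteins are made in every cell, and in injured kidney their transcripts come from tubular, vascular, stromal and immune cells together. In bulk RNA fewer cells of a type and less RNA per cell cannot be told apart.

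Values below are normalised reads, the gene counts that the authors divided by a size factor per library, unless FPKM is named. FPKM are reads scaled to library total and to gene length, taken as all annotated exons of the gene together. Library totals were worked out from each gene's reads, FPKM and annotated exon length, as a median over genes. These inferred totals came to 16835541 to 17577794 reads in the MK-8617 libraries and 18620621 to 19508497 in the IRI libraries. Listed kidney markers included Umod, Slc12a1, Slc22a8 and Nphs1, and 0 of 8 lymphocyte markers were listed. The table holds only genes with a p below 0.05 in this contrast, so an unlisted marker may still be expressed. Of 12 proximal tubule markers 4 were listed and tested, and 2 of these were higher with MK-8617. The summed level of these 4 was 655 to 719 FPKM in MK-8617 libraries and 135 to 403 FPKM in IRI libraries. Of 16 proliferation markers 14 were lower with MK-8617 and 0 higher, and their summed level was 60.7 to 64.3 FPKM in MK-8617 libraries and 147 to 327 FPKM in IRI libraries. Of 8 tested macrophage and monocyte markers 6 were lower (89.5 to 124 FPKM in MK-8617 libraries, 146 to 253 FPKM in IRI libraries), and of 5 tested fibroblast and pericyte markers 4 were lower (60 to 96.1 FPKM in MK-8617 libraries, 251 to 362 FPKM in IRI libraries), and 1 was higher. The part of these marker shifts in the results below was not tested.

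The table holds a gene only where the authors' test gave it a p below 0.05, so every member here had already been selected on this contrast, and members outside the table have no value. The mouse annotation (GENCODE M21, GRCm38) holds 179 protein-coding genes that fit the symbol rule, of which 78 are listed. The remaining member, Snrpert, is annotated as a processed pseudogene. After a filter on low reads 78 members were tested with limma. At an adjusted p below 0.05, 25 rose and 33 fell. That is 74.4% of tested members, while 74.3% of all 6961 tested genes were called. Of tested members 32.1% rose and 42.3% fell, and of all tested genes 35.7% were higher and 38.7% lower. Members had a median log2 fold change of -0.34, and all tested genes one of -0.31. As a whole, therefore, the members were called about as often as any listed gene, and their spread by role carries the description below. The groups did not overlap in 77 members, 98.7% of those tested, and in 92.5% of all tested genes. By the adjusted p of the authors' deposited table, below 0.05, 27 members were higher and 36 lower, and of all listed genes 36.3% were higher and 40.8% lower (77.1% in all).

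Many calls of modest size were lost when 1 library was left out. Without MK-8617 replicate 1, 2 or 3 the number of members that rose was 12, 14 or 16, and without IRI replicate 1 it was 15. The share of all tested genes called higher was also smaller in these settings, at 21.4%, 25.4% and 23.2% without MK-8617 replicate 1, 2 or 3 and at 25.4% without IRI replicate 1, against 35.7% with all libraries. With TMM scaling, edgeR, DESeq2 or limma-voom 33 members rose and 30 fell, so that rises outnumbered falls, and 52.4% of called members were higher, against 43.1% in the analysis as reported. Of all called genes 55.2% to 57.2% were higher in these 4 settings, against 48%. When the dependence on transcript length and GC content was taken out of each library, here called the length-GC correction, 10 members rose and 32 fell, so that 23.8% of called members were higher. The median of all tested genes moved to -0.10 under that correction, against -0.31 without it. Among members 9 have a near-identical copy by alignment, 11 share exon positions with another gene on the same strand and 21 on the opposite strand. In these the authors' counting could mix reads. The copy counted for Snrpf is Ccdc38, which overlaps it on the opposite strand, and Snrpe and Snrpert are counted as copies of each other. No member changed sign when libraries were scaled to their totals or by TMM, or in edgeR, DESeq2 or limma-voom on recovered reads.

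**Figure D1:**
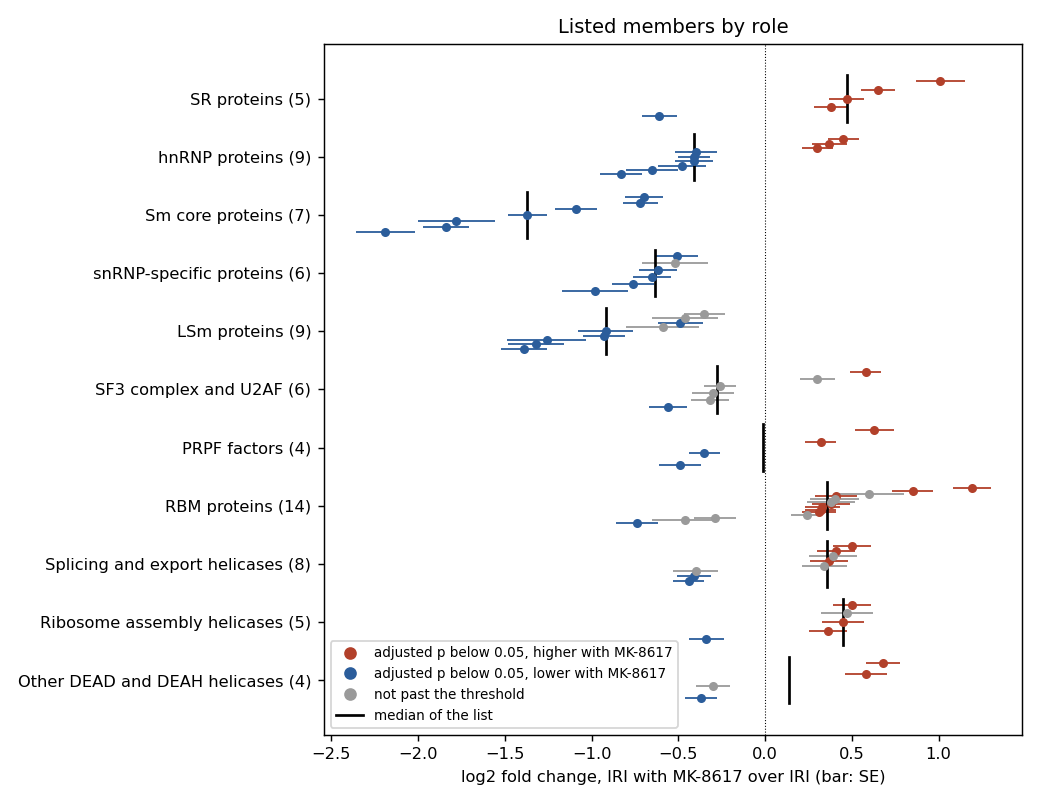
Log2 fold change of each of 77 tested members with a role, IRI with MK-8617 over IRI, with its SE, in rows by role. Red points rose, blue points fell and grey points were not past the threshold, and the black line is the median of the list. Sm core, snRNP-specific and LSm members all lie left of 0, with medians of -1.37, -0.64 and -0.92, while the medians of SR proteins and RBM proteins lie at 0.47 and 0.35.

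All listed genes of the Sm core fell. Sm proteins form the ring that assembles on U1, U2, U4 and U5 snRNAs, and 7 of the 8 annotated Sm genes were listed, tested and lower with MK-8617. The eighth, Snrpn, is not in the table. Snrpf (ENSMUSG00000020018, chr10:93583029-93589706, minus strand, GRCm38) had 173, 117 and 130 normalised reads in MK-8617 replicates 1, 2 and 3, against 620, 670 and 619 in IRI replicates 1, 2 and 3. Every MK-8617 library lay far below every IRI library, and the group means differed 4.54-fold. The log2 fold change of Snrpf was -2.19 ± 0.17 (SE, limma adjusted p = 8.17e-05), the lowest among tested members. Snrpg (ENSMUSG00000057278, chr6:86371304-86379328, plus strand) had 277, 301 and 239 normalised reads with MK-8617, against 911, 1073 and 945 with IRI alone. Its log2 fold change was -1.84 ± 0.13 (adjusted p = 6.16e-05), again with no overlap. Snrpe had 380, 219 and 373 normalised reads with MK-8617, replicate 2 being lowest, against 917, 1078 and 1284 with IRI alone (-1.78 ± 0.22).

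The promoter windows of Snrpf and Snrpg are shown because these members fell most, and because MK-8617 acts on HIF, whose recognition core is ACGTG or GCGTG. Each window runs from 250 bases before to 50 after the RefSeq transcript start (GRCm38.p6), in lower case, with matches of ACGTG or GCGTG on either strand in capitals.
Snrpf, chr10:93589609-93589908, minus strand: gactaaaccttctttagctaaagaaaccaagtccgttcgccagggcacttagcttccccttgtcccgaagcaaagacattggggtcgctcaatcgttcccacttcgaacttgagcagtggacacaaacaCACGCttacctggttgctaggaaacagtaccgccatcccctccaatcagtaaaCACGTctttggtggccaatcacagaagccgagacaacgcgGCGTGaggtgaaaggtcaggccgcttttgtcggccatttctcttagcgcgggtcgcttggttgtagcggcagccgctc
Snrpg, chr6:86371290-86371589, plus strand: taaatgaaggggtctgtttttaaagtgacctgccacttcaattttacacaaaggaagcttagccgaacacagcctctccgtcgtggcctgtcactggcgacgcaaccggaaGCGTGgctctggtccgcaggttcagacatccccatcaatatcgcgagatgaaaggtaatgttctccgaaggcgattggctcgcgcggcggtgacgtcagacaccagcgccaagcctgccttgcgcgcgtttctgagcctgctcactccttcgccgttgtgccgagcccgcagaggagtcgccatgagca
The Snrpf window held 3 matches and the Snrpg window 1. Promoter windows were found for 66 members, 82 windows in all. Either core was in 75.6% of these windows and in 43.8% of the 32851 windows of all genes. It was in 82.4% of the 34 windows of 24 members that rose and in 77.4% of the 31 windows of 27 members that fell. These shares count windows and not genes, and windows of 1 gene can overlap, as in Srrm2. ACGTG was in 50% of windows of members that rose and in 38.7% of windows of members that fell, against 19.6% of all windows. In the 15 Sm core and LSm windows ACGTG was in 20%, close to the share in all windows. GCGTG was in 80% of these 15, against 32.4% of all windows, and either core was in 80%. Motifs of other factors were counted too. CCGGAA, an ETS motif, was in 42.7% of member windows and 14.9% of all windows. GGGCGG, an SP1 motif, was in 58.5% of member windows and 35.7% of all windows. The E-box motif was in 9.76% of member windows and 7.15% of all windows, and the NRF1 motif in 2.44% and 0.971%. TATAAA went the other way, in 9.76% of member windows and 13.6% of all windows. The 32851 windows also cover genes outside the table, and no share is given for listed genes alone. The cause of these differences was not tested. All motifs were searched on both strands, and matches describe letters and show no binding.

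The other Sm genes fell less. Snrpd2 averaged 909 ± 67.7 normalised reads in the MK-8617 libraries and 2352 ± 263 with IRI alone (n = 3 each, ± SD), a log2 fold change of -1.37 ± 0.11 (adjusted p = 0.00013). Snrpd3 averaged 691 ± 72.4 with MK-8617 and 1474 ± 154 with IRI alone (-1.09 ± 0.12). Snrpb and Snrpd1 were at -0.72 ± 0.10 and -0.70 ± 0.11. The fall of all 7 held without any 1 library, with list medians of -1.46 to -1.31. After the length-GC correction 6 fell and the median was -1.27, and Snrpb (-0.30) was no longer past the threshold. After a correction for length alone, the call of Snrpd1 was lost. Snrpf shares exonic sequence with a transcript of Ccdc38 and overlaps genes on the opposite strand, and Snrpe has a near-identical copy, Snrpert, so reads of both are uncertain. Snrpert itself had 50.2, 50.2 and 30.8 normalised reads in the MK-8617 libraries and 71, 116 and 64.2 with IRI alone, and was not past the threshold (-0.91 ± 0.32, adjusted p = 0.0666).

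**Figure D2:**
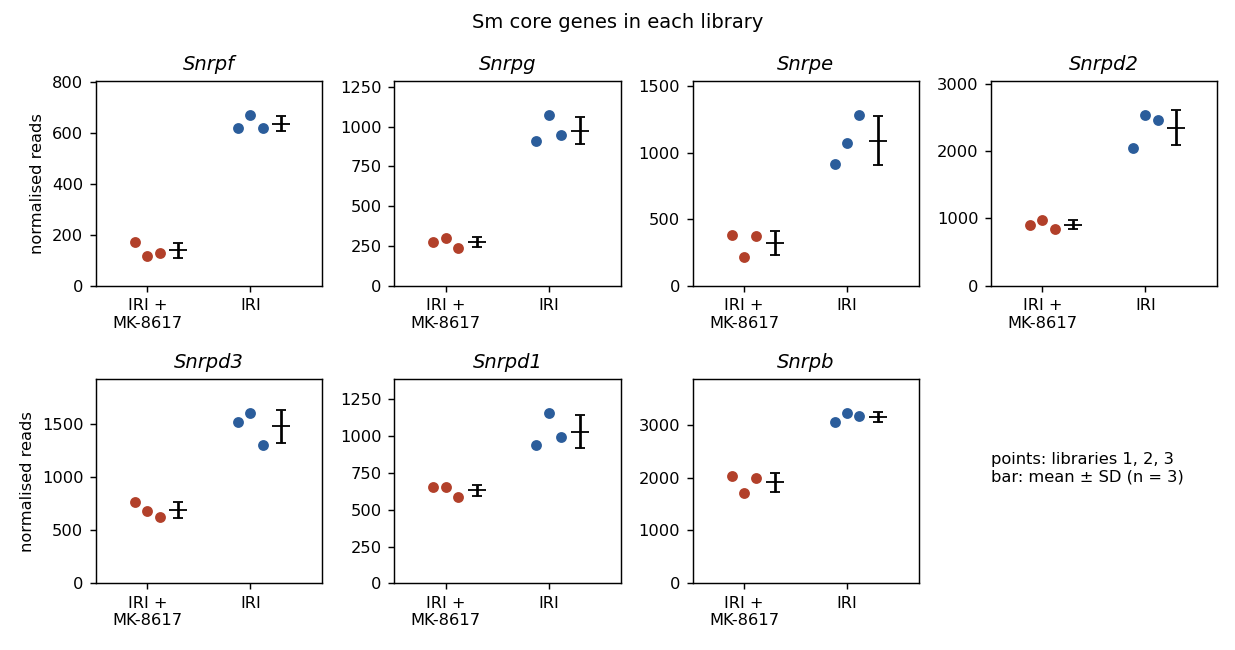
Normalised reads of the 7 listed Sm core genes in each library, with IRI with MK-8617 (red) left of IRI (blue) and the mean ± SD of 3 libraries beside each group. Axes start at 0. In every panel the highest MK-8617 library lies below the lowest IRI library, as in Snrpf (117 to 173 with MK-8617, 619 to 670 with IRI alone) and Snrpb (1708 to 2029 with MK-8617, 3049 to 3223 with IRI alone).

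Proteins that belong to a particular snRNP fell as well, in 5 of 6 tested genes, and the sixth, Snrnp25, was at -0.52 ± 0.19 (adjusted p = 0.072). Snrnp35, a protein of the minor U11/U12 snRNP, had 118, 86.4 and 106 normalised reads with MK-8617, against 193, 226 and 192 with IRI alone. It was lower in every MK-8617 library and changed by -0.98 ± 0.19. Snrnp27, of the U4/U6.U5 tri-snRNP, was at -0.76 ± 0.12, Snrpc, of U1, at -0.65 ± 0.11, Snrpa1, of U2, at -0.62 ± 0.11 and Snrnp40, of U5, at -0.51 ± 0.12. Thus proteins of the U1, U2, U5 and minor snRNPs were each represented among those that fell. After the length-GC correction 2 of the 5 were still past the threshold, Snrnp27 (-0.38) and Snrpa1 (-0.38). The call of Snrnp40 was also lost without MK-8617 replicate 1 (-0.49).

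LSm proteins form rings of the same build, LSm2 to LSm8 on U6 snRNA in the nucleus and an LSm1-containing ring in mRNA decay. Of 9 tested genes 6 fell and 0 rose, with a median of -0.92. Lsm6 (ENSMUSG00000031683, chr8:78804865-78821140, minus strand) had 341, 414 and 309 normalised reads with MK-8617, against 843, 981 and 951 with IRI alone. The groups were far apart, and the log2 fold change was -1.39 ± 0.13 (adjusted p = 0.000259). Lsm7 was at -1.32 ± 0.16, Lsm5 at -1.26 ± 0.23, Lsm4 at -0.93 ± 0.12 and Lsm8 at -0.92 ± 0.16. Lsm2 was at -0.49 ± 0.13, a call lost without any 1 MK-8617 replicate (-0.52 to -0.43), IRI replicate 1 (-0.53) or IRI replicate 2 (-0.38). Lsm3, the only tested member whose groups overlapped, had 195, 237 and 190 normalised reads in the MK-8617 libraries and 236, 411 and 311 with IRI alone (-0.59 ± 0.21, adjusted p = 0.0681). Lsm10, a protein of the U7 snRNP that acts on histone mRNA, and Lsm14b, a cytoplasmic mRNP protein, were at -0.46 ± 0.19 and -0.35 ± 0.12 and not past the threshold. Among LSm genes 6 fell after the length-GC correction, but the median was -0.45 and Lsm2 was at 0.02. Lsm5 and Lsm7 have near-identical copies elsewhere in the genome.

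**Figure D3:**
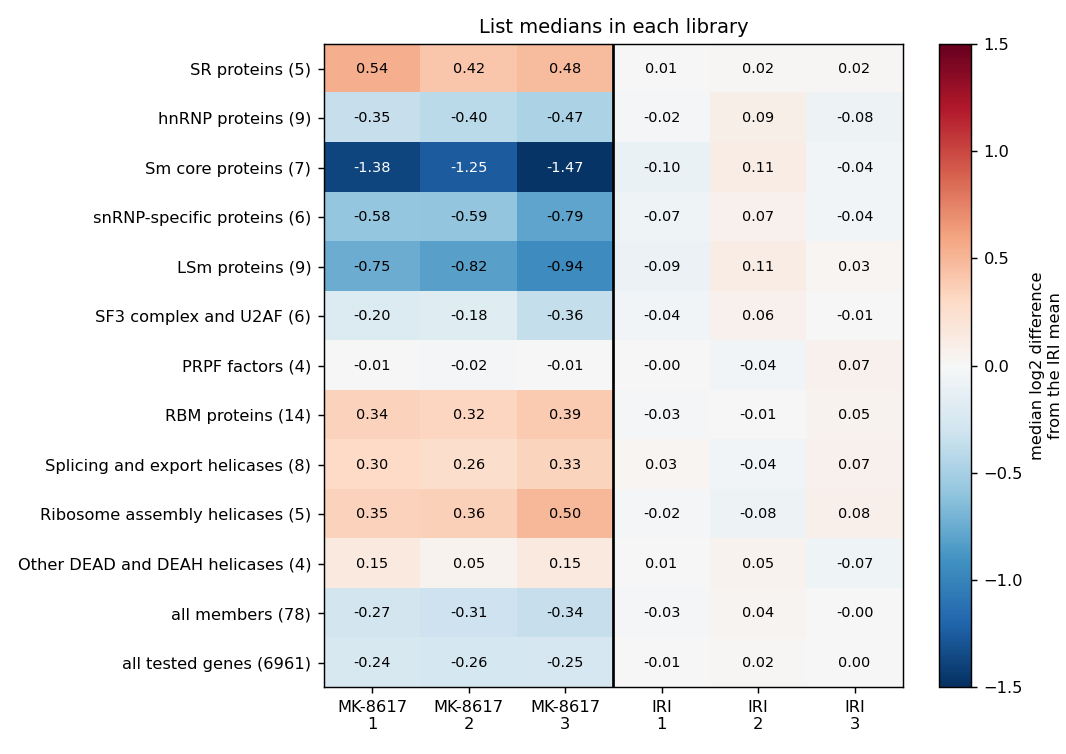
Median log2 difference from the IRI mean over the members of each role list, in each library, with the 3 MK-8617 libraries left of the 3 IRI libraries. Sm core medians were -1.38, -1.25 and -1.47 in the MK-8617 libraries and -0.10 to 0.11 in the IRI libraries. The medians of all tested genes were -0.24 to -0.26 with MK-8617, and those of IRI libraries lie within 0.11 of 0 in every row.

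Factors that recognise the branch point and act in spliceosome activation went both ways. SF3a and SF3b are parts of the U2 snRNP, and among 6 tested subunits 1 rose and 1 fell. No U2AF gene was listed. Sf3b1, the scaffold of SF3b, had 5354, 5406 and 4959 normalised reads with MK-8617, against 3451, 3555 and 3496 with IRI alone. It was higher in every MK-8617 library, at 0.58 ± 0.09 (adjusted p = 0.00236), and its call was lost after the length-GC correction (0.31). Sf3a3 fell, with 508 ± 29.6 normalised reads in MK-8617 libraries and 749 ± 61 in IRI libraries (-0.56 ± 0.11). Sf3b2 (-0.26 ± 0.09) and Sf3b3 (0.30 ± 0.10) had groups that did not overlap but adjusted p of 0.0573 and 0.0551. Without IRI replicate 3, 2 subunits rose, without MK-8617 replicate 2, 2 fell, and after the length-GC correction 0 rose and 3 fell.

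Of 4 tested PRPF factors 2 rose and 2 fell. Prpf39, a U1 snRNP-associated factor, had 1315, 1400 and 1266 normalised reads with MK-8617, against 841, 779 and 952 with IRI alone (0.63 ± 0.11, adjusted p = 0.00291). Its groups were well apart, yet after the length-GC correction it was at 0.08. Prpf4b, a kinase of the spliceosome, was at 0.32 ± 0.09, and at -0.02 after that correction. Prpf31, of the U4/U6 snRNP, fell (-0.49 ± 0.12), and Prpf19, the ubiquitin ligase of the Prp19 complex, fell too (-0.35 ± 0.09). Without MK-8617 replicate 1 both falls were lost (-0.51 and -0.35). The call of Prpf31 was also lost without MK-8617 replicate 3 (-0.42), and that of Prpf19 without MK-8617 replicate 2 (-0.35) or IRI replicate 1 (-0.32). The call of Prpf4b was lost without any 1 MK-8617 replicate, IRI replicate 1 or IRI replicate 3 (0.28 to 0.33).

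Most listed SR proteins rose, unlike the snRNP proteins. Of 5 tested, 4 rose and 1 fell, with a median of 0.47. Srrm2 (ENSMUSG00000039218, chr17:23790532-23824741, plus strand), a large SR-related protein of nuclear speckles, had 13400, 15153 and 15161 normalised reads with MK-8617, against 8314, 5968 and 7597 with IRI alone. It was higher in every MK-8617 library, and its log2 fold change was 1.01 ± 0.14 (adjusted p = 0.00121), or 0.82 after the length-GC correction. Srsf2, which binds exonic enhancers, had 4734, 4203 and 4559 normalised reads with MK-8617, against 2917, 3089 and 2628 with IRI alone. It rose by 0.65 ± 0.10 and was at 0.64 after the length-GC correction. Srsf6 and Srsf11 rose by 0.47 ± 0.10 and 0.38 ± 0.10, calls that were lost after the length-GC correction (0.24 and 0.20). Srsf11 was also lost without MK-8617 replicate 1, MK-8617 replicate 2, IRI replicate 1 or IRI replicate 2 (0.33 to 0.38). Srsf9 was the member that fell, with 773 ± 63 normalised reads in MK-8617 libraries and 1174 ± 19.1 in IRI libraries (-0.61 ± 0.10, adjusted p = 0.00259), and it was at -0.18 after the length-GC correction. Srsf2 overlaps Mettl23 and Mfsd11 and Srrm2 overlaps Elob on the opposite strand, and the library kit is not described as strand-specific.

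The windows of Srrm2 and Rbm14 are shown as those of the members that rose most, marked as above.
Srrm2, chr17:23802937-23803236, plus strand: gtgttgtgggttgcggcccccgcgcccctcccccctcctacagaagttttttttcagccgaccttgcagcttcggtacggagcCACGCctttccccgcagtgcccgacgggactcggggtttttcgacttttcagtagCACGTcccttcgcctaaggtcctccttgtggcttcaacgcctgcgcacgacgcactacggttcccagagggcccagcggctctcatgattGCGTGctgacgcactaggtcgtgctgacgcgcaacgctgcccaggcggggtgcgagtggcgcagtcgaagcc
Rbm14, chr19:4811585-4811884, minus strand: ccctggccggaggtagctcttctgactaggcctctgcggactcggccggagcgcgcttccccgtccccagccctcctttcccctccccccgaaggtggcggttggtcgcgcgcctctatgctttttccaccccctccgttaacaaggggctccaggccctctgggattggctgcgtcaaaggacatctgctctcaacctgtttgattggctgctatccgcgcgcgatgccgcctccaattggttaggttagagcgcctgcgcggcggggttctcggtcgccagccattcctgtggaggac
The Srrm2 window, at the more upstream of its RefSeq starts, held 3 matches, and the Rbm14 window held 0.

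RBM proteins are a mixed family that carries RNA recognition motifs. Of 39 annotated genes 15 were listed, 14 were tested, 7 rose and 1 fell, with a median of 0.35. Rbm14 (ENSMUSG00000006456, chr19:4800569-4811634, minus strand), a paraspeckle protein and transcriptional coactivator, had 1094, 1116 and 1158 normalised reads with MK-8617, against 522, 523 and 430 with IRI alone. Every MK-8617 library lay far above every IRI library, and the log2 fold change was 1.19 ± 0.11 (adjusted p = 0.00021), the highest among tested members. Rbm14 overlaps Gm21992 on the same strand and Gm21844 on the opposite strand, so its reads are uncertain. Rbm45 had 538, 502 and 563 normalised reads with MK-8617, against 321, 295 and 270 with IRI alone (0.85 ± 0.12, and 0.85 after the length-GC correction). Rbm8a, the Y14 subunit of the exon junction complex, was the member that fell, with 912, 679 and 774 normalised reads with MK-8617 against 1294, 1277 and 1344 with IRI alone (-0.74 ± 0.12, adjusted p = 0.00257).

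The other RBM genes that rose were Rbm18, Rbm26, Rbm7, Rbm22 and Rbm25, at 0.31 to 0.41. None of these 5 calls held after the length-GC correction, where 2 RBM genes rose. The number that rose was 2 without MK-8617 replicate 1, 3 without MK-8617 replicate 2, MK-8617 replicate 3 or IRI replicate 1, and 4 without IRI replicate 2, whereas TMM scaling gave 11. Rbm18, for example, was lost without any 1 MK-8617 replicate or IRI replicate 2 (0.34 to 0.43). Rbm44 was too low to be tested, with 0 reads in each MK-8617 library and 3, 6 and 4 reads in the IRI libraries. A count of 0 allows up to 3 reads in a library by counting error alone. Rbm3, a cold-induced RNA-binding protein, was not listed.

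The hnRNP proteins, which coat nascent transcripts, split by gene. Of 9 tested, 6 fell and 3 rose, with a median of -0.41. Hnrnpa1 (ENSMUSG00000046434, chr15:103240432-103246692, plus strand), which often represses exon use, had 3098, 2738 and 3118 normalised reads with MK-8617, against 4927, 6175 and 4861 with IRI alone. The log2 fold change was -0.83 ± 0.12 (adjusted p = 0.00169), and -0.82 after the length-GC correction. Its relative Hnrnpa3 had 1862, 1778 and 1761 normalised reads with MK-8617, against 1301, 1334 and 1315 with IRI alone. It rose by 0.45 ± 0.09 (adjusted p = 0.00544), so these related genes moved in opposite directions, but Hnrnpa3 has 21 near-identical copies in the annotation and Hnrnpa1 has 1, and their reads are uncertain. Hnrnpc, a component of the core hnRNP particle, fell (-0.65 ± 0.15) but did not pass without MK-8617 replicate 3 (-0.61), and Hnrnpm fell by 0.41 ± 0.09, a fall called without any 1 library. Hnrnpm overlaps March2 on the same strand, so its reads are uncertain too.

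Among the other hnRNP genes Hnrnph3, Hnrnpa2b1 and Hnrnpab fell (-0.48, -0.41 and -0.40), and Hnrnph1 and Hnrnpu rose (0.37 and 0.30). Each of these 5 calls was lost without at least 3 of the libraries in turn, and those of Hnrnph3 and Hnrnpab also with TMM scaling (-0.42 and -0.34). The number of hnRNP genes that fell was 3 without MK-8617 replicate 2, IRI replicate 1 or IRI replicate 2. It dropped to 2 without MK-8617 replicate 3, and the number that rose was 1 without MK-8617 replicate 1, MK-8617 replicate 2 or IRI replicate 1. After the length-GC correction 6 fell and 1, Hnrnpa3, rose, while Hnrnpu was at -0.04.

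Every tested RNA helicase differed by less than 0.7 on the log2 scale. Of 8 tested helicases of splicing and mRNA export 3 rose and 2 fell. Ddx39b (UAP56), which acts in splicing and export, had 5353, 4712 and 4605 normalised reads with MK-8617, against 3598, 3155 and 3639 with IRI alone (0.50 ± 0.11, adjusted p = 0.00955). Its paralogue Ddx39 had 1251, 1178 and 1172 with MK-8617 and 1578, 1563 and 1764 with IRI alone. The groups did not overlap for either gene, and the paralogues moved in opposite directions, with Ddx39 at -0.44 ± 0.09 (adjusted p = 0.00872). Ddx39 overlaps Adgre5 on the opposite strand and Ddx39b overlaps Gm22589 and Mir8094 on the same strand, so reads of both are uncertain. The call of Ddx39b was lost after a correction for length alone (0.34). Ddx17 and its relative Ddx5, coregulators in splicing and transcription, rose by 0.41 ± 0.11 and 0.37 ± 0.11, and Ddx41 fell (-0.41 ± 0.10). Ddx5 has 1 near-identical copy, Gm12183.

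Several of these helicase calls were lost when 1 library was left out, a change that also made calls over all tested genes fewer in most cases. Without MK-8617 replicate 1, for example, 21.4% of all tested genes were higher and 27.6% lower, against 35.7% and 38.7% with all libraries. Ddx17 was lost without MK-8617 replicate 1, MK-8617 replicate 2 or IRI replicate 2 (0.37 to 0.42), Ddx5 without any 1 library other than IRI replicate 2 (0.29 to 0.40), and Ddx41 without MK-8617 replicate 1 (-0.40) or IRI replicate 1 (-0.41). The number of splicing and export helicases that rose was 1 without MK-8617 replicate 1 or 2, 5 with TMM scaling and 1, Ddx39b, after the length-GC correction.

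Of 5 tested helicases of ribosome assembly 3 rose and 1 fell. Dhx33 had 675, 689 and 688 normalised reads in the MK-8617 libraries and 499, 429 and 533 with IRI alone, a rise of 0.50 ± 0.11 with no overlap. Dhx37 and Ddx49 rose by 0.45 ± 0.12 and 0.36 ± 0.11, and Ddx52 fell (-0.34 ± 0.10). Ddx49 was lost without any 1 library other than IRI replicate 3 (0.32 to 0.38), as was Ddx52 (-0.37 to -0.28), and Dhx37 without MK-8617 replicate 1, MK-8617 replicate 3 or IRI replicate 2 (0.39 to 0.43). The number that rose was 1 without MK-8617 replicate 1, MK-8617 replicate 3 or IRI replicate 2, 2 after the length-GC correction and 0 after a correction for length alone. The fall of Ddx52 was also lost with TMM scaling, edgeR, DESeq2 and limma-voom (-0.27 to -0.25).

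Among the 4 other helicases Dhx40 and Ddx28, a mitochondrial ribosome factor, rose. Dhx40 had 1393, 1213 and 1438 normalised reads with MK-8617, against 799, 858 and 867 with IRI alone (0.68 ± 0.10, adjusted p = 0.00185). Ddx28 had 409, 440 and 400 with MK-8617, against 286, 293 and 257 with IRI alone (0.58 ± 0.12). The groups of neither gene overlapped, and both calls held without any 1 library and after the length-GC correction (0.46 and 0.62). Ddx1 fell (-0.37 ± 0.09) but did not pass without MK-8617 replicate 1 (-0.37), MK-8617 replicate 2 (-0.34), IRI replicate 1 (-0.37) or IRI replicate 2 (-0.32). Ddx6, an mRNA decay and P-body helicase, was at -0.30 ± 0.10 (adjusted p = 0.0511).

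Members that rose had longer principal transcripts, by their median, than members that fell. The median transcript of members that rose was 3527 nucleotides and their median exon number 13, and those of members that fell were 1584 nucleotides and 7 exons. All tested genes that rose had a median of 3333 nucleotides, and those that fell one of 1948. Over 78 members Spearman's rho between transcript length and log2 fold change was 0.64, and over 6881 other tested genes it was 0.22. This is a description across genes that share libraries, and for GC content rho was -0.07 and -0.12. Of 14 members of up to 1000 nucleotides 10 fell and 0 rose, and of all 900 tested genes of that size 64.7% fell and 17% rose. Of 7 members of 1000 to 1500 nucleotides 6 fell, while 54.6% of all 790 tested genes of that size fell. Above 5000 nucleotides 5 of 8 members rose and 0 fell, and 50.2% of all 1154 such genes rose. Of 26 members of 3000 to 5000 nucleotides 10 rose and 7 fell, and of all 1846 tested genes of that size 44.6% rose and 27.5% fell. Lsm6 and Snrpd3, at 3792 and 3036 nucleotides, were among the members of that size that fell (-1.56 and -1.27 after the length-GC correction).

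**Figure D4:**
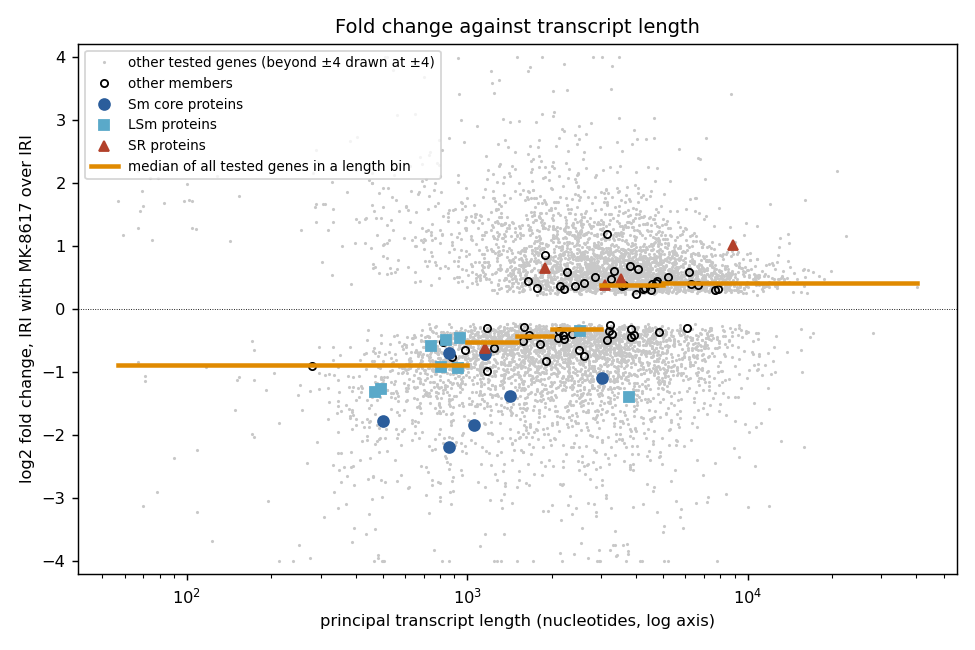
Log2 fold change, IRI with MK-8617 over IRI, against principal transcript length on a log axis, for members (coloured or open symbols) and the other tested genes (grey). Orange lines are medians of all tested genes in length bins, from -0.88 at up to 1000 nucleotides to 0.41 above 5000. Snrpf, Snrpg and Snrpe, at -2.19 to -1.78, lie below the line of their length bin, and Srrm2, at 8864 nucleotides, lies above it.

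After the length-GC correction, 25.3% of all tested genes rose and 34.4% fell, and of 78 members 10 rose and 32 fell. The members that rose were Rbm14, Rbm45, Srrm2, Srsf2, Ddx28, Hnrnpa3, Ddx39b, Dhx40, Ddx49 and Dhx37. Through the 19 alternatives tried, 22 members kept their call, 7 of them higher and 15 lower. The share of all tested genes that kept theirs is not reported here, so these counts do not set members apart from other genes. Calls over all tested genes shrank too, to 21.4% higher and 27.6% lower without MK-8617 replicate 1. The 7 were Rbm14, Srrm2, Rbm45, Dhx40, Srsf2, Ddx28 and Hnrnpa3, and the 15 were Snrpf, Snrpg, Snrpe, Snrpd2, Snrpd3, Snrpa1, Lsm6, Lsm7, Lsm5, Lsm4, Hnrnpa1, Hnrnpm, Rbm8a, Sf3a3 and Ddx39. Besides the overlaps and copies named above, Snrpa1 overlaps Gm45213 on the same strand. Snrpd3 overlaps Gucd1 and Ddx28 overlaps Dus2 on the opposite strand, so reads of these genes are uncertain as well.

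**Figure D5:**
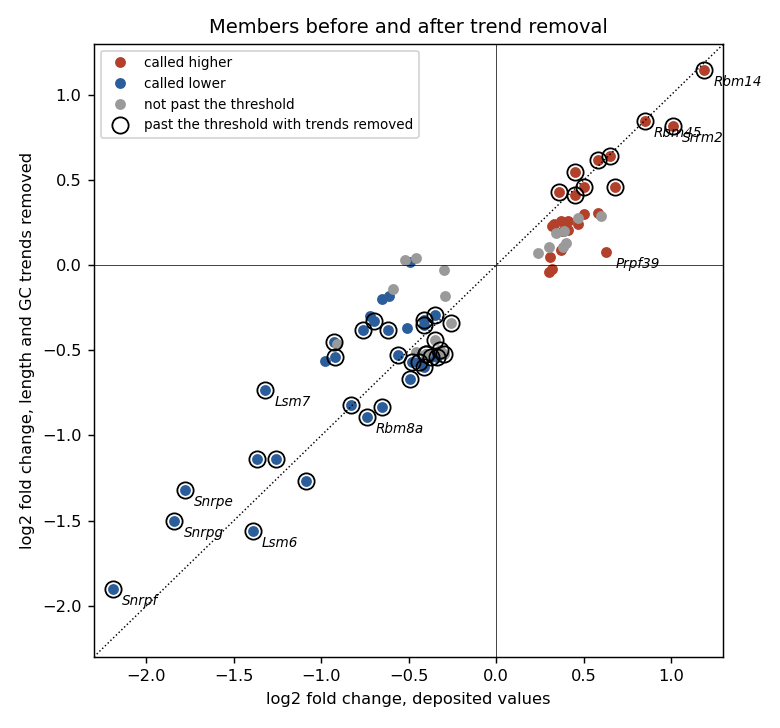
Log2 fold change of 78 tested members before (x axis) and after (y axis) the length-GC correction, with the dotted line marking equal values. Black rings mark members past the threshold after it, 10 higher and 32 lower. Rbm14 (1.19 and 1.15) and Snrpf (-2.19 and -1.90) stay near the line, while Prpf39 (0.63 and 0.08) moves towards 0.

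Levels were compared between genes by FPKM. Its gene length takes in all annotated exons and can exceed the principal transcript, so levels of some genes with short principal transcripts may be understated. Ddx5 had the highest mean level of the members, at 180 FPKM with MK-8617 and 142 FPKM with IRI alone, followed by Hnrnpab at 92.3 FPKM with MK-8617 and 123 FPKM with IRI alone and by Hnrnpa2b1 at 79.4 FPKM with MK-8617 and 107 FPKM with IRI alone. With MK-8617 Srsf2 was at 84.5 FPKM and Srrm2 at 63.1 FPKM, against 54.8 and 32 FPKM with IRI alone. The median level of the Sm core genes was 13.1 FPKM with MK-8617 and 44.8 FPKM with IRI alone, that of SR proteins 60.7 FPKM with MK-8617 and 40 FPKM with IRI alone, and that of LSm genes 6.34 FPKM with MK-8617 and 12.8 FPKM with IRI alone. The gene at the median differed between groups for SR proteins (Srsf6 with MK-8617, Srsf9 with IRI alone) and for LSm genes (Lsm2 with MK-8617, Lsm6 with IRI alone). Those medians therefore do not give the change of any 1 gene. Members that rose had a median of 12.2 FPKM over all libraries and members that fell one of 17.6 FPKM.

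Related genes outside the symbol rule were read from 5 lists. Kinases of SR proteins and their partners rose in 6 of 6 tested genes of 14, with a median of 0.48. Clk1, a kinase that phosphorylates SR proteins, averaged 2964 ± 551 normalised reads in the MK-8617 libraries and 1714 ± 74.3 with IRI alone, a log2 fold change of 0.77 ± 0.14 (adjusted p = 0.00403). Clk2 rose by 0.55 ± 0.11. Clk3 rose by 0.44 ± 0.10 but did not pass without MK-8617 replicate 1 (0.38) or IRI replicate 1 (0.41). The others were Clk4 (0.51 ± 0.13), Son, a nuclear speckle protein (0.33 ± 0.10), and Prpf4b, which is also a member. Without MK-8617 replicate 1 or IRI replicate 1, Clk3, Clk4, Son and Prpf4b all lost their call and 2 of the 6 rose, and 3 rose without MK-8617 replicate 2. Son was also lost with library totals. Of the 6 kinase-list genes 4 rose after the length-GC correction, with a median of 0.45. Of 14 tested tissue splicing regulators 7 rose and 4 fell, with a median of 0.50. Esrp2, an epithelial splicing regulator, rose by 0.63 ± 0.09, Ptbp2 rose by 0.75 ± 0.12, and Taf15, an RNA-binding protein, averaged 1042 ± 147 with MK-8617 and 1972 ± 46 with IRI alone (-0.93 ± 0.12). After the length-GC correction 5 regulators rose and 4 fell, with a median of 0.25. Only 2 fell without MK-8617 replicate 1, MK-8617 replicate 2 or IRI replicate 2, where Khdrbs1 (-0.35 ± 0.09) and Nono (-0.29 ± 0.09) lost their call, and 2 fell with DESeq2.

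Of 13 tested step factors of the spliceosome 4 rose and 7 fell, with a median of -0.44. Luc7l and Luc7l2, U1 snRNP-associated proteins, rose by 0.59 ± 0.09 and 0.57 ± 0.09, and Ppil1, a prolyl isomerase of the spliceosome, fell (-0.97 ± 0.16). The length-GC correction left 3 rises and 6 falls among these step factors, with a median of -0.34. With TMM scaling, edgeR, DESeq2 or limma-voom 6 fell, as Sart1 (-0.41 ± 0.12) lost its call. Of 6 tested genes that assemble snRNPs 1 rose and 3 fell, with a median of -0.49. Gemin7, a subunit of the SMN complex that loads Sm rings, averaged 654 ± 80.2 normalised reads in the MK-8617 libraries and 1129 ± 68.5 with IRI alone (-0.79 ± 0.12, adjusted p = 0.00171), or -0.34 after the length-GC correction. Tgs1, which hypermethylates the snRNA cap, rose by 0.68 ± 0.13, and Clns1a, a chaperone of Sm proteins, fell (-0.41 ± 0.10) but did not pass without MK-8617 replicate 1 (-0.40), MK-8617 replicate 3 (-0.38) or IRI replicate 2 (-0.35). Gemin2, also of the SMN complex, fell (-0.58 ± 0.18), but its call was lost without any 1 library other than MK-8617 replicate 2, and with TMM scaling, edgeR, DESeq2 or limma-voom, where 2 genes of the list rose and 2 fell. The list held 1 fall without MK-8617 replicate 1, MK-8617 replicate 3 or IRI replicate 2, and 2 rises without MK-8617 replicate 1. With the length-GC correction 1 gene of this list rose and 1 fell, with a median of -0.27. Of 15 tested genes of the exon junction, export and nonsense-mediated decay 4 rose and 4 fell, with a median of -0.28. Upf3a (-0.66 ± 0.13), the export adaptor Alyref (-0.60 ± 0.13) and Thoc6 (-0.70 ± 0.15) fell, and the call of Thoc6 was lost after the length-GC correction (-0.41). That correction left 2 rises and 3 falls, with a median of -0.17. The rises of Nxf1 (0.48 ± 0.11), Upf3b (0.56 ± 0.15) and Thoc7 (0.51 ± 0.15) were all lost without MK-8617 replicate 2, leaving 1. There were 2 rises without MK-8617 replicate 1 or IRI replicate 1, and 7 with TMM scaling, edgeR, DESeq2 or limma-voom.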

How the data were processed

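RNA was sequenced from 6 mouse kidneys, 3 per group, grouped by title. Per the labels' protocols, TRIzol RNA and the NEBNext Ultra RNA kit were used. The submitters' processing notes name DESeq2 1.20.0, featureCounts 1.5.0-p3, HISAT2 2.0.5, CASAVA 1.8 and fastp. They give a human genome build, GRCh38 (hg38), although the gene identifiers are those of mouse, and 7338 of 7340 matched GENCODE M21 (GRCm38), whose gene models, lengths and GC content were used. Promoter windows are from RefSeq (GRCm38.p6).

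The deposited signal values are normalised reads: per gene, the authors had scaled each library's count by its size factor. Every value was a whole number of reads times a constant within a tolerance of 0.001 reads, or of 0.001 per 1000 reads for values above 1000 reads (100% of values), and the recovered reads equalled the deposited raw count of IRI replicate 3 in 7340 of 7340 genes. FPKM, also deposited, had been scaled by the authors to gene length and library total. Deposited log2 fold changes and p-values are the authors' own. The largest listed p is 0.0499, and the deposited adjusted p-values imply 18811 genes. Another 13 columns without name or values were not used, and 11 symbols turned into dates were restored from identifiers.

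Limma 3.58.1 (trend, robust, R 4.3.3) was run on log2(value + 1) over 6961 genes that passed filterByExpr of edgeR 4.0.16, which removed 379. Fold changes are on that scale, which understates changes of low genes. P-values were adjusted by Benjamini-Hochberg over 18811 genes. The script was tested on simulated counts. The length-GC correction took out trends fitted as natural splines with 4 degrees of freedom on the principal transcript's log2 length and GC content, over each library's deviation from the gene mean. No pair of libraries within a group matched to within counting error (16.8 to 46.4 chi-square units for each degree of freedom). Members, the 11 role lists, 5 related lists and 10 marker lists were chosen with earlier results of these data known. The rule for named members took up to 4 per role list by p, the 8 largest rises and falls and Rbm3, and up to 3 genes per related list. Other members were named after their values were seen. Overlapping genes and copies (at least 95% identity over 50% of the principal transcript, by minimap2) were looked up in GENCODE M21.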

Additional observations from a re-analysis of the deposited data

How the results depend on the processing

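Depth, 3 libraries a group and the selection of the table at p below 0.05 limit these results, and no count here extends to genes outside the table. The count of members that rose, 25 as reported, was 11 after correction for length and 10 after the length-GC correction, 12 to 26 when 1 library was left out, and 33, with 30 falls, with TMM, edgeR, DESeq2 or limma-voom. The count that fell, 33 as reported, was 24 to 33 when 1 library was left out and stayed within 24 to 45 in all 19 alternatives. The median, -0.34 as reported, was -0.28 with TMM, edgeR or limma-voom, -0.26 with DESeq2, -0.20 after correction for length, -0.18 after the length-GC correction, and -0.37 to -0.30 when 1 library was left out. Its sign did not change. The cause was not tested. Over the 78 tested members and 15 related genes, signs changed after the length-GC correction for Prpf4b (-0.02), Hnrnpu (-0.04), Lsm2 (0.02), Lsm10 (0.04) and Snrnp25 (0.03), and after correction for length alone for Sf3b6 (0.02). Of these 93 genes 20 lost their call without a change of sign after the length-GC correction and 5 gained 1, and 24 lost theirs without MK-8617 replicate 1. With 18811 replaced by the 6961 tested genes in the adjustment, 33 members rose and 45 fell. Of all tested genes 47% were then higher and 50.2% lower. The table holds only genes already past p below 0.05, so this setting calls nearly every gene and says nothing particular about members. The shared replicate numbers did not meet the criterion for pairing: deviations of same-numbered libraries correlated at 0.021, 0.116 and 0.115, each library correlating best with its own number, and with the replicate block 23 members rose and 37 fell. Length-trend values depend on the annotated principal transcript, which is 3792 nucleotides for Lsm6.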
